A study of Mus musculus with 1019 samples.

Results

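The cells described here are VAT regulatory T cells (Tregs) in which a transcript of the inhibitory lectin receptor gene Klrg1 was counted and none of Il1rl1, the gene of the IL-33 receptor ST2. They were selected on measured values: a cell entered with 1 or more unique molecular identifiers (UMIs, the tags that let each captured mRNA be counted once) of Klrg1 and 0 of Il1rl1. They are called Klrg1-only cells below, and 25.9% of the 644 VAT cells, among 1019 cells in all, met the rule (exact Clopper-Pearson 95% interval 22.6 to 29.5%). VAT library 2 held 81 of them among 330 cells (24.5%), and VAT library 3 held 86 (27.4% of that library). In the spleen library 9 cells, or 2.40%, met the same rule.

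The study profiled single Tregs by inDrops, a droplet method that counts the 3' ends of mRNAs, in 2 libraries from epididymal visceral adipose tissue (VAT) and 1 from spleen. All mice were male B6 animals aged 20 months, and live cells were sorted that stained for CD4, CD25 and the TCR beta chain. The gate used CD25 and not Foxp3, so activated conventional CD4 T cells could pass it. The labels name no animal behind a library and do not say whether tissue was pooled. VAT was digested with enzymes and the spleen was dissociated mechanically, so tissue and dissociation cannot be told apart. Each p-value below measures only the spread between the 2 VAT libraries, which may be technical.

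As background, VAT holds a Treg population that is known to expand with age in male mice, to depend on the adipocyte-linked factor PPAR-gamma, and to respond to IL-33 from stromal cells through ST2. ST2 pairs with the accessory protein encoded by Il1rap and signals through Myd88, IRAK kinases and NF-kB. Its known outputs include amphiregulin (Areg) and, with GATA3, a set of type 2 genes. KLRG1 binds cadherins and marks terminally differentiated effector T cells, including effector Tregs.

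Klrg1-only cells were not poor in Klrg1. Klrg1 reached 36.9 UMIs per 10,000 UMIs in Klrg1-only cells of library 2 and 39.5 in library 3, beside 41.8 and 33.4 in cells with both transcripts. The median Klrg1-only cell held 5 Klrg1 UMIs in each library, up to 17 in library 2 and 27 in library 3. Just inside the rule lay 10 cells in each library with exactly 1 Klrg1 UMI. These values follow from the rule and are given as a description. In the spleen library as a whole Klrg1 stood at 0.889 per 10,000.

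The other VAT cells fell into 2 classes. Cells with both transcripts, called double-positive, made up 59.4% of library 2 and 61.8% of library 3, 390 cells in all. Cells without a Klrg1 UMI numbered 53 and 34, and 24 and 15 of these had an Il1rl1 UMI. Klrg1 lies on chromosome 6 at 122270596 to 122282882 on the minus strand, and Il1rl1 on chromosome 1 at 40429570 to 40465415 on the plus strand, in build mm10 with GENCODE M21. That annotation lists 5 Il1rl1 transcripts, of which 2 end near the gene's end and 3 further upstream. The gene's single count therefore does not separate the membrane receptor from shorter soluble forms.

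**Figure D1:**
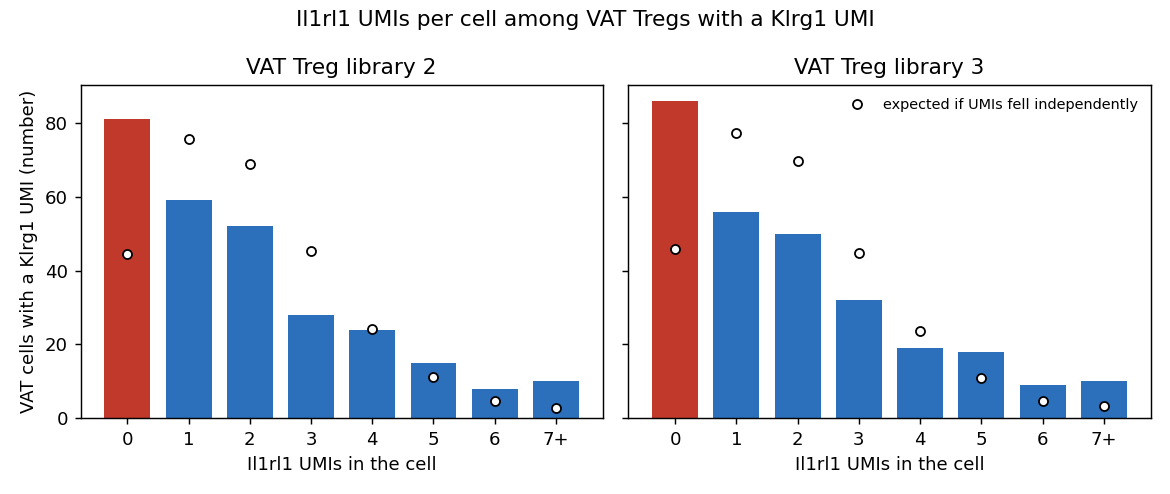
Number of VAT cells with a Klrg1 UMI (y axis) by their Il1rl1 UMIs (x axis), for each VAT library. The red bar holds the Klrg1-only cells (81 and 86), blue bars the double-positive cells, and open circles the number of cells each bar would hold if Il1rl1 UMIs fell independently at the library's mean share.

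A count of 0 for Il1rl1 does not show that a cell lacked the transcript. Cells with a Klrg1 UMI carried a mean of 1.99 Il1rl1 UMIs in library 2 and 1.98 in library 3. Had those UMIs fallen independently among cells of the same depths, 44.5 and 45.8 cells would have been at 0, where 81 and 86 were observed. The excess at 0 came with an excess at the other end, since 10 cells in each library held 7 or more Il1rl1 UMIs where 2.74 and 3.30 were expected.

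The same excess was seen for other VAT Treg genes, so it did not single out Il1rl1. Gata3 was at 0 in 76 and 91 cells with a Klrg1 UMI, against 30.7 and 48.7 expected. Areg was at 0 in 92 and 85, against 16.6 and 9.64. Il10, counted in bursts of up to 44 UMIs per cell, was at 0 in 72.6% and 73.9% of these cells, against 20.1% and 25.1%. UMIs of each of the 4 genes were thus more clumped in cells than independent draws.

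Detection of Il1rl1 also rose with depth. In library 2 an Il1rl1 UMI was found in 59.8% of the shallowest of 3 equal groups of cells with a Klrg1 UMI (887 to 1410 UMIs, exact 95% interval 49 to 69.9%), in 71.7% of the middle group and in 80.6% of the deepest (71.1 to 88.1%). In library 3 the shares were 59.1%, 66.3% and 82.1%. Thinning every VAT cell at random to 800 UMIs raised the share of VAT cells meeting the rule from 25.9% to 39.6%. The label "without ST2 transcripts" therefore means that none was counted at this depth.

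By contrast, among cells with a Klrg1 UMI, detection of Il1rl1 showed no steady change with the number of Klrg1 UMIs. It was 69.7% and 75.6% in the cells of libraries 2 and 3 with 1 Klrg1 UMI, and 80.6% and 72.4% in those with 10 or more. Intervals of these shares overlapped within each library. In VAT cells with no Klrg1 UMI it was 45.3% (31.6 to 59.6%) and 44.1% (27.2 to 62.1%). Over the whole spleen library, at a median of 1423 UMIs per cell, an Il1rl1 UMI was seen in 1.87% of cells after thinning. The VAT shares in this paragraph were taken before thinning, so the spleen share is not at the same depth. Exact intervals cover counting error only.

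**Figure D2:**
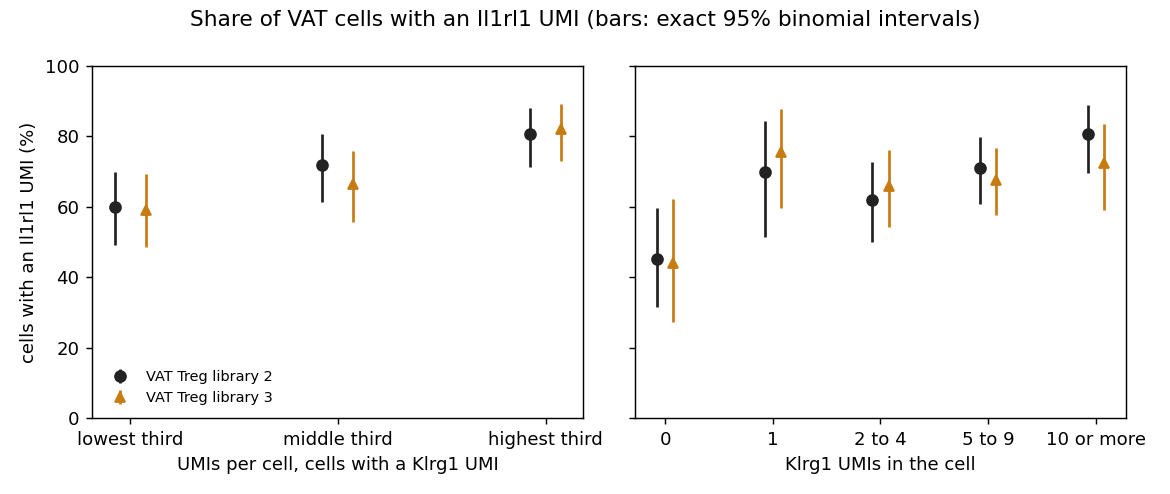
Share of VAT cells with an Il1rl1 UMI before thinning (y axis, %) by total UMIs per cell among cells with a Klrg1 UMI (left) and by Klrg1 UMIs (right), for each VAT library, with exact 95% binomial intervals. The share climbs from 59.8% and 59.1% in the shallowest cells to 80.6% and 82.1% in the deepest.

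Klrg1-only cells were shallower than double-positive cells, with medians of 1462 and 1498 UMIs per cell in libraries 2 and 3 against 1641.5 and 1710. All tests below therefore set each Klrg1-only cell against 1 other cell of its own library with nearly the same number of UMIs. After matching, medians were 1462 against 1469 in library 2 and 1498 against 1502.5 in library 3. The 2 VAT libraries shared 2 cell barcodes, none of them a Klrg1-only cell in both.

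Summed over cells, markers of CD4 T cells and of Tregs were present. All 5 Treg markers (Foxp3, Il2ra, Ctla4, Ikzf2 and Tnfrsf18) and all 4 T cell markers (Cd3d, Cd3e, Cd3g and Cd4) had UMIs among Klrg1-only cells of both libraries. The Treg markers summed to 33.9 and 29.3 UMIs per 10,000 in Klrg1-only cells, 37.5 and 32.2 in the other VAT cells, and 18.7 in spleen. After thinning to 800 UMIs, at least 1 Treg marker was seen in 84% (74.1 to 91.2%) and 73.3% (62.6 to 82.2%) of Klrg1-only cells, in 88% and 85.5% (80.3 to 89.8%) of other VAT cells and in 68.8% of spleen cells. Single cells without such a UMI could not be typed by these markers. Foxp3, the Treg lineage factor, had a UMI in 34 of 81 and 20 of 86 Klrg1-only cells. After thinning to 800 UMIs its share was 25.9% (16.8 to 36.9%) and 11.6% (5.72 to 20.3%) in Klrg1-only cells, 25.7% and 18.9% in other VAT cells and 24.5% in spleen. Library 3 thus had the lower share, and the shares of Klrg1-only and other VAT cells had overlapping intervals in both libraries.

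Markers of other cell types were at or near 0 in Klrg1-only cells. Neither library had a UMI of any of 5 adipocyte markers or of 3 erythroid markers. Of 8 myeloid markers only Cst3 was counted, at 1.82 and 2.05 UMIs per 10,000 in Klrg1-only cells against 2.21 and 2.31 for the whole list in other VAT cells. Of 6 CD8 and NK markers 1 and 2 were counted, at 0.633 and 0.659 per 10,000, with Cd8a, Ncr1 and Eomes at 0. Of 8 markers of type 2 innate lymphoid and mast cells 2 were counted in each library, at 0.237 and 0.512, with Kit, Cpa3 and Il13 at 0. Of 6 stromal and endothelial markers 1 and 2 were counted, with 1 and 2 UMIs.

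Klrg1-only cells carried the VAT Treg genes that set VAT apart from spleen in these libraries. GATA3, the type 2 transcription factor that is also part of the VAT Treg programme, is encoded by Gata3, which stood at 11.1 and 8.49 UMIs per 10,000 in Klrg1-only cells of libraries 2 and 3. Double-positive cells held 15.3 and 11.5, cells without Klrg1 13.2 and 8.90, and the spleen 2.30. Both Klrg1-only values lay below the double-positive value of the same library and well above the spleen. After thinning, Gata3 was seen in 51.9% (40.5 to 63.1%) and 44.2% (33.5 to 55.3%) of Klrg1-only cells, in 59.7% and 55.2% of double-positive cells, and in 11.5% of spleen cells.

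Pparg, the gene of PPAR-gamma, was too rare for a comparison, with 9 and 10 UMIs in Klrg1-only cells of libraries 2 and 3. Areg, the gene of the repair factor amphiregulin, stood at 15 and 22 UMIs per 10,000 in Klrg1-only cells, at 19.8 and 21.7 in double-positive cells and at 0.349 in spleen. Its library 2 value was below and its library 3 value at the level of double-positive cells. A thinned Areg UMI was found in 59.3% and 51.2% of Klrg1-only cells and in 1.33% of spleen cells.

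Il10, the gene of the suppressive cytokine IL-10, differed between libraries. Klrg1-only cells held 4.67 Il10 UMIs per 10,000 in library 2 and 8.34 in library 3, and double-positive cells 12 and 8.33. The gap between the classes was thus present in library 2 and absent in library 3. The chemokine receptor gene Ccr2 stood at 8.39 and 8.56 in Klrg1-only cells and 8.42 and 9.02 in double-positive cells, with 0.0697 in spleen. Cxcr6, another chemokine receptor of tissue T cells, stood at 3.40 and 2.34 against 3.91 and 3.90, with 0.0349 in spleen.

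Dgat1, which encodes an enzyme of triglyceride synthesis, was lower in Klrg1-only than in double-positive cells of both libraries, as a description of sums. It had 25 and 38 UMIs there, or 1.98 (exact Poisson 95% interval 1.28 to 2.92) and 2.78 (1.97 to 3.82) per 10,000, beside 4.77 and 4.31 in double-positive cells and 0.244 in spleen. Cells without a Klrg1 UMI held 5.01 and 2.57, so that in library 3 they were as low as Klrg1-only cells. A thinned Dgat1 UMI occurred in 9.88% (4.36 to 18.5%) and 14% (7.42 to 23.1%) of Klrg1-only cells and in 25.5% and 20.1% of double-positive cells. The library 2 intervals of the share did not overlap, those of library 3 did. Dgat1 did not pass the test described below.

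**Figure D3:**
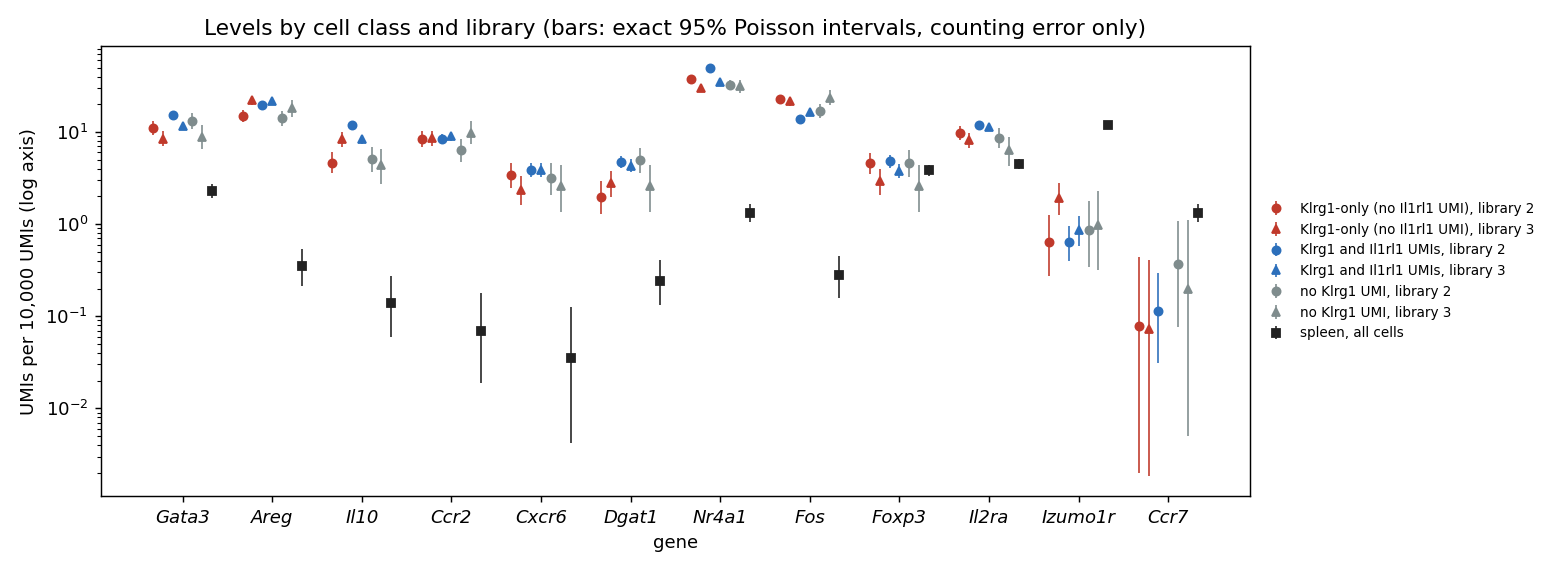
UMIs per 10,000 UMIs (log axis) of 12 genes in the 3 VAT cell classes of each VAT library and in the spleen library, with exact 95% Poisson intervals that cover counting error only; a value of 0 is not drawn. VAT classes lie above the spleen for Gata3, Areg, Il10, Ccr2, Cxcr6, Dgat1, Nr4a1 and Fos, while Foxp3 lies at 4.59 and 2.93 in Klrg1-only cells and 3.85 in spleen.

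Of the 6 genes Gata3, Areg, Il10, Pparg, Ccr2 and Cxcr6, a Klrg1-only cell thinned to 800 UMIs showed a mean of 1.91 ± 1.10 (SD over 81 cells) in library 2 and 1.69 ± 1.03 (86 cells) in library 3. Double-positive cells showed 2.16 ± 1.09 and 2.07 ± 1.14, and spleen cells 0.139 ± 0.361. At least 3 of the 6 were seen in 29.6% and 18.6% of Klrg1-only cells, in 40.3% and 34% of double-positive cells and in no spleen cell. Cells without a Klrg1 UMI showed a mean of 1.58 and 1.76, and 17% and 32.4% of them showed at least 3. Those values lay below Klrg1-only cells in library 2 and above them in library 3, and below double-positive cells in both. None of the 6 was seen in 9 and 10 Klrg1-only cells.

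Cells just outside the rule, with a Klrg1 UMI and a single Il1rl1 UMI, numbered 59 and 56. They held 15.1 and 11.9 Gata3 UMIs per 10,000, against the 11.1 and 8.49 of Klrg1-only cells, and 4.95 and 3.77 Dgat1 UMIs against 1.98 and 2.78. In cells with 2 Il1rl1 UMIs Gata3 stood at 13.6 and 12.6 and Dgat1 at 4.27 and 5.69, and in cells with 3 or more at 16.5 and 10.8 and at 4.96 and 3.95. Il10 stood at 13 and 12.2 in cells with 1 Il1rl1 UMI, at 13.7 and 6.62 with 2 and at 10.4 and 6.93 with 3 or more. In library 3 the last 2 groups thus held less Il10 than Klrg1-only cells, at 8.34. Cells with neither transcript, 29 and 19 in number, held 10.8 and 5.92 Gata3 UMIs per 10,000 and 10.1 and 15 of Areg.

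The first comparison asked which genes other than Klrg1 and Il1rl1 distinguish Klrg1-only cells from all other VAT cells of the same depth. UMIs were summed over the 81 and 86 Klrg1-only cells and over the same numbers of matched cells, and the 4 sums were fitted with edgeR's quasi-likelihood test with the library as a block. Of 3922 genes with 20 or more UMIs, 3 were higher in Klrg1-only cells (0.0765% of genes tested) and 1 was lower (0.0255%) at a Benjamini-Hochberg adjusted p under 0.05. At an unadjusted p under 0.05 there were 4.26% of the genes, and DESeq2 called 1 gene. The higher genes were Penk, Hspa1a and Fos, and the lower gene was Zmpste24.

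Penk, which encodes the opioid peptide precursor proenkephalin, stood at 8.23 UMIs per 10,000 in Klrg1-only cells and 0.712 in matched cells of library 2, and at 2.05 and 0.146 in library 3. Its log2 fold change was 3.58 ± 0.43 (SE; edgeR adjusted p = 7.44e-13), with log2 ratios of 3.46 and 3.51 in the 2 libraries. Those UMIs came from 6 Klrg1-only cells in library 2, 1 of which held 82, and from 2 cells in library 3 with 14 each. Without its highest cell the library 2 level fell from 8.23 to 1.74 per 10,000. In an alternative chosen after seeing the data, each gene's highest cell over both libraries and both classes was set to the second highest of those cells. The log2 fold change of Penk was then 2.58 (edgeR adjusted p = 0.00110). Over all double-positive cells, unmatched, Penk stood at 1.06 and 0.857 per 10,000, from 7 and 3 cells with up to 25 and 29 UMIs, and against all other VAT cells without matching the log2 fold change was 2.51. Penk UMIs were also found in 25 spleen cells (6.67%), at 3.35 per 10,000. No Penk UMI was counted in the other 75 and 84 Klrg1-only cells.

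Hspa1a, a stress-inducible HSP70 chaperone gene, had 19 UMIs against 3 in matched cells of library 2 and 43 against 11 in library 3. Its log2 fold change was 2.17 ± 0.51 (edgeR adjusted p = 0.0231). Against all other VAT cells without matching it was 1.55 and did not pass (edgeR adjusted p = 0.0569). Those cells held 0.884 and 0.679 Hspa1a UMIs per 10,000 in libraries 2 and 3, beside 1.503 and 3.147 in Klrg1-only cells. Against all double-positive cells without matching the log2 fold change was 1.57 and passed (edgeR adjusted p = 0.0343). In each library 5 Klrg1-only cells carried it, and the 3 highest held 84.2% and 86% of the UMIs. Hspa1b, a near-identical copy, can share reads with Hspa1a, so the split between the copies is uncertain. Hspa1b had a log2 fold change of 0.89 (edgeR adjusted p = 0.417).

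Fos, the immediate early AP-1 gene, stood at 22.6 UMIs per 10,000 against 14.9 in matched cells of library 2 and at 21.5 against 14.8 in library 3. Its log2 fold change was 0.58 ± 0.14 (edgeR adjusted p = 0.0231), with log2 ratios of 0.60 and 0.54. Fos was not seen in more of the Klrg1-only cells: 48 of 81 carried it against 50 of 81 matched cells in library 2, and 45 against 48 of 86 in library 3. The excess over matched cells lay in cells with many Fos UMIs, up to 25 and 34 against 19 and 26. Among unmatched cells, a double-positive cell of library 2 held 50. Cells without a Klrg1 UMI held 16.99 and 23.7 per 10,000, in library 3 above Klrg1-only cells. Against all other VAT cells without matching the log2 fold change was 0.48 and did not pass (edgeR adjusted p = 0.149). Against all double-positive cells without matching it was 0.53 and passed (edgeR adjusted p = 0.00985). When each cell's UMIs of a gene were counted at most once, an alternative chosen after seeing the data, the log2 fold change of Fos was -0.066. With the gene's highest cell over both libraries and classes set to the second highest, Fos no longer passed (edgeR adjusted p = 0.0661). In spleen Fos stood at 0.279 per 10,000.

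Zmpste24, the metalloprotease gene that processes prelamin A, had 5 UMIs in Klrg1-only cells and 22 in matched cells of library 2, and 3 and 30 in library 3. Its log2 fold change was -2.65 ± 0.59 (edgeR adjusted p = 0.0151). Matched cells with a UMI numbered 7 and 8, and their 3 highest cells held 68.2% and 66.7% of the UMIs. Against all other VAT cells without matching the log2 fold change was -1.90 (edgeR adjusted p = 0.251). Unmatched, Zmpste24 stood at 0.396 and 0.220 UMIs per 10,000 in Klrg1-only cells and at 0.920 and 1.74 in double-positive cells. Cells without a Klrg1 UMI held 0.367 and 0.198, from 3 and 1 UMIs. On these few UMIs, a level below double-positive cells was not particular to Klrg1-only cells. Lmna, the lamin A gene, stood at 14.8 against 15.6 and 13.9 against 12.8 UMIs per 10,000, a log2 fold change of 0.03.

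**Figure D4:**
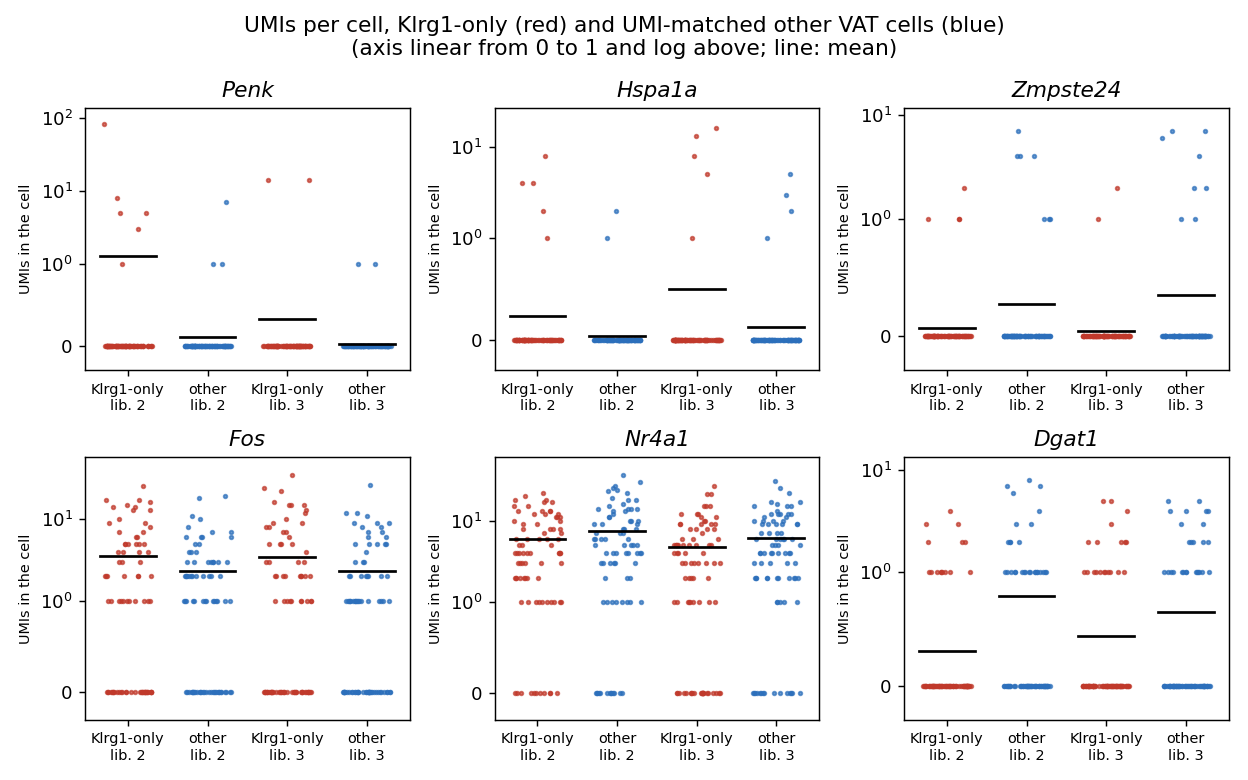
UMIs per cell (y axis, linear from 0 to 1 and log above) of 6 genes in Klrg1-only cells (red) and UMI-matched other VAT cells (blue) of each VAT library, with 81 and 86 cells per column and the mean as a line. Penk, Hspa1a and Zmpste24 rest on a few cells each, while Fos and Nr4a1 are spread over most cells.

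The number of calls differed with the spread that edgeR estimated. With 4 sums and a library block each gene had 1 residual degree of freedom, and edgeR estimated an infinite prior, that is, it gave every gene of similar abundance the same spread. In the 6 alternative settings where the estimated prior was finite, between 3.87 and 16.1 degrees of freedom, no gene was called in this comparison, although the log2 fold changes of Penk stayed between 3.56 and 3.58 in the 5 of these that tested it. The second comparison below gave 0 to 6 calls over the same alternatives. Neither comparison had a call when a cell's UMIs of a gene were counted at most once. Penk and Hspa1a then had too few UMIs to be tested, so neither could be called in that setting.

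Among genes that did not pass, the largest log2 ratios shared by both libraries were those of Fam111a (1.86 and 2.05), Hexim1 (1.03 and 1.65) and Bag6 (1.09 and 1.02) on the higher side. On the lower side they included those of Aebp2 (-1.53 and -1.93), Ap2s1 (-1.30 and -1.58), Kcmf1 (-1.22 and -1.53) and Cxcl10 (-2.11 and -1.08), the gene of an interferon-induced chemokine. Cxcl10 had UMIs in 2 and 1 Klrg1-only cells. Among all other VAT cells, unmatched, 1 cell held 33 of 68 Cxcl10 UMIs in library 2 and 1 held 22 of 43 in library 3. Of the genes with ratios given here, the lowest edgeR adjusted p was 0.211, for Fam111a. Over all other VAT cells, unmatched, Hexim1 stood at 1.68 and 0.946 UMIs per 10,000, beside 1.98 and 1.68 in Klrg1-only cells. Bag6 stood there at 0.908 and 0.801, beside 1.90 and 2.42. Myc, the growth-linked transcription factor gene, had 25 against 13 and 18 against 8 UMIs (log2 fold change 1.04 ± 0.51, edgeR adjusted p = 0.9998). Unmatched, Myc stood at 1.98 and 1.32 per 10,000 in Klrg1-only cells and at 1.21 and 1.14 in all other VAT cells.

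In this matched comparison Gata3 stood at 11.1 UMIs per 10,000 against 16.8 in library 2 and at 8.49 against 10.8 in library 3. The log2 fold change was -0.47 ± 0.17 and did not pass (unadjusted p = 0.00483, edgeR adjusted p = 0.881). For Dgat1 the counts were 25 against 64 and 38 against 56, with a log2 fold change of -0.93 ± 0.30 (edgeR adjusted p = 0.435). Il10 stood at 4.67 against 12.1 and at 8.34 against 6.73 per 10,000, so its log2 ratios were -1.37 and 0.31. The 2 libraries thus agreed in sign for Gata3 and Dgat1 and not for Il10.

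The second comparison set Klrg1-only cells against matched double-positive cells, so that both sides had a Klrg1 UMI and differed in the Il1rl1 count. Of 3939 genes tested, edgeR called 2 higher (0.0508%) and 2 lower (0.0508%) in Klrg1-only cells. At an unadjusted p under 0.05 there were 4.95% of the genes, and DESeq2 called 1. Because both comparisons use the same Klrg1-only cells, they are not independent of each other.

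Penk and Fos were again higher, with log2 fold changes of 3.71 ± 0.45 (edgeR adjusted p = 1.39e-12) and 0.51 ± 0.12 (edgeR adjusted p = 0.0400). Zmpste24 was lower at -2.67 ± 0.62 (edgeR adjusted p = 0.0209). Hspa1a, at 2.05 ± 0.52, did not pass (edgeR adjusted p = 0.0562).

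Nr4a1, an immediate early nuclear receptor gene induced by T cell receptor signals, was lower in Klrg1-only cells, with 37.7 UMIs per 10,000 against 51.3 in library 2 and 29.8 against 38.1 in library 3. Its log2 fold change was -0.40 ± 0.09 (edgeR adjusted p = 0.0209), with log2 ratios of -0.45 and -0.35. Cells without a Klrg1 UMI, unmatched, held 32.4 and 31.4 per 10,000, so a level below double-positive cells was not particular to Klrg1-only cells. In edgeR the call was lost against all double-positive cells without matching (adjusted p = 0.326) and with every cell thinned (0.923). It was also lost with RLE factors (0.108), with library totals (0.995) and without a low-count filter. Leaving out the 5% of deepest cells (0.976) or the library block (0.977) lost it as well, and DESeq2 did not call Nr4a1 (adjusted p = 0.999). The edgeR call was kept with 50 or more UMIs (adjusted p = 0.00439) and with 2 or more Klrg1 UMIs (0.0161). It was also kept with the gene's highest cell set to the second highest (0.0298). The log2 fold change was -0.072 when a cell's UMIs were counted at most once. Nr4a1 was broadly detected, in 86.4% and 73.3% of Klrg1-only cells and in 85.7% and 85.6% of double-positive cells before thinning. At 800 UMIs the shares were 76.5% and 69.8% against 78.6% and 76.3%, with overlapping intervals, and 7.20% in spleen. Fos and Nr4a1 are both immediate early genes and moved in opposite directions here.

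No gene of the VAT Treg programme passed in this second comparison. Areg stood at 15 against 22.1 and at 22 against 27.9 UMIs per 10,000, a log2 fold change of -0.44 ± 0.12 (edgeR adjusted p = 0.101). Il10 stood at 4.67 against 13.3 and at 8.34 against 8.10 per 10,000, at -0.70 ± 0.19 (edgeR adjusted p = 0.112), with the difference in library 2. With Klrg1-only cells of 2 or more Klrg1 UMIs, Il10 and Areg passed, at -0.92 (edgeR adjusted p = 0.00538) and -0.50 (edgeR adjusted p = 0.0194), and with a minimum of 50 UMIs per gene Areg passed, at -0.44 (edgeR adjusted p = 0.0477). When a cell's UMIs of a gene were counted at most once, Areg was at 0.048. Gata3 was at -0.45 ± 0.16 (edgeR adjusted p = 0.608) and Dgat1 at -0.91 ± 0.30 (edgeR adjusted p = 0.545). Ccr2 was at -0.13 ± 0.18 and Cxcr6 at -0.44 ± 0.30, both with an edgeR adjusted p of 0.998.

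Among cells that also had a Foxp3 UMI, 34 and 20 Klrg1-only cells against as many double-positive cells, edgeR called 2 genes lower. These were Il10, at -2.24 (edgeR adjusted p = 2.32e-06), and Nr4a1, at -0.68 (edgeR adjusted p = 0.00157). The estimated prior was infinite in this fit. Against all other VAT cells with a Foxp3 UMI it was 4.83 degrees of freedom. There Il10 was at -1.72 and Nr4a1 at -0.67, and neither passed (edgeR adjusted p = 0.995 for both). Penk and Zmpste24 had too few UMIs in these cells to be tested. Against double-positive cells with a Foxp3 UMI, Fos was at 0.32 and did not pass. The Il10 result in cells with a Foxp3 UMI is not split by library here. With all matched cells, Il10 log2 ratios against double-positive cells were -1.51 in library 2 and 0.04 in library 3. The 3 highest of all Klrg1-only cells held 66.1% and 46.5% of their Il10 UMIs.

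**Figure D5:**
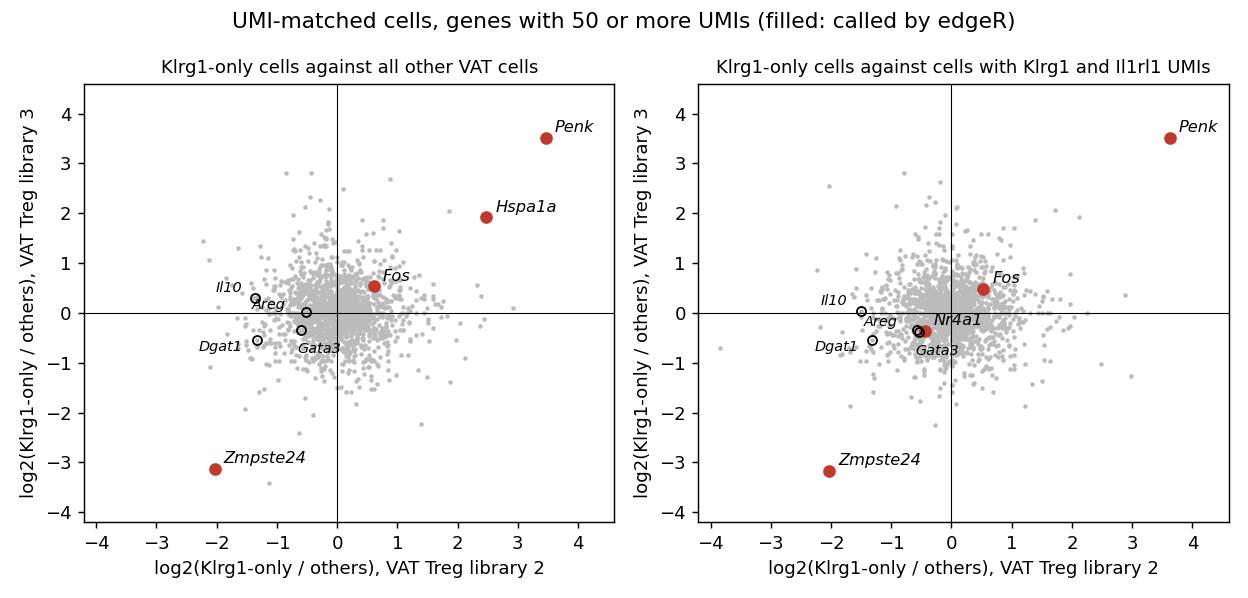
log2 ratio of Klrg1-only to UMI-matched cells in library 2 (x axis) and library 3 (y axis) for genes with 50 or more UMIs, against all other VAT cells (left) and against double-positive cells (right). Red points passed edgeR at an adjusted p under 0.05, and most genes lie around 0 in both libraries.

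Other genes of Treg identity and activation did not pass between Klrg1-only and double-positive cells, and few counts limit some of them. Foxp3 had 58 against 55 and 40 against 54 UMIs, a log2 fold change of -0.15 ± 0.28. Il2ra, the CD25 gene, was at -0.18 ± 0.17, and Ctla4, a checkpoint receptor gene, at -0.25 ± 0.22. Cd4 was at 0.11 ± 0.24. Tnfrsf9, the costimulatory receptor gene 4-1BB, was at -0.78 ± 0.56 on 19 against 33 and 4 against 7 UMIs, lower in both libraries. None of these passed edgeR (lowest adjusted p 0.998).

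Among tissue and effector genes, some had small log2 fold changes against double-positive cells and others differed between libraries. S100a4 and S100a6, calcium-binding genes that are high in migratory effector cells, were at 0.03 ± 0.07 and 0.11 ± 0.08 on 812 to 1055 and 691 to 1012 UMIs per sum of double-positive cells. Ltb4r1, the leukotriene B4 receptor gene, was at 0.11 ± 0.19, and Id2, a repressor of E proteins, at -0.13 ± 0.20. Gzmb, the granzyme B gene, showed 27 against 3 UMIs in library 2 and 10 against 25 in library 3, opposite directions. Il7r, the IL-7 receptor gene, also differed in sign, with log2 ratios of -0.73 and 0.45. Izumo1r, a folate receptor gene high in the spleen Tregs at 12 per 10,000, stood at 0.633 and 1.90 in Klrg1-only cells. Ccr7, the lymph node homing receptor gene, had 1 UMI in each library's Klrg1-only cells and 76 in spleen. Those counts come from 126410 and 136630 UMIs of all genes in Klrg1-only cells and 573622 in spleen.

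The third comparison set Klrg1-only cells against matched cells without a Klrg1 UMI, 52 pairs in library 2 and 34 in library 3. Of 2146 genes edgeR called 0 higher (0%) and 0 lower (0%), with 46 at an unadjusted p under 0.05, and DESeq2 called 0. The larger shared log2 ratios were those of Hexim1 (1.29 and 2.72) and Stk24 (1.44 and 1.19), and on the lower side those of Ppp1cc (-1.32 and -1.28) and Fkbp3 (-1.32 and -0.94), all with an edgeR adjusted p of 0.957. S100a6 stood at 68.5 against 43.8 and at 57.9 against 46.3 UMIs per 10,000, a log2 fold change of 0.49 ± 0.14 (edgeR adjusted p = 0.957). Gata3 was equal within error, at 0.01 ± 0.19. This comparison had fewer pairs and fewer tested genes than the other 2.

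Genes of the ST2 pathway itself were sparse. Il1rap, the gene of the accessory chain, had 0 UMIs in Klrg1-only cells of both libraries and 3 in the double-positive cells of each. A count of 0 allows up to 0.237 and 0.220 UMIs per 10,000 here, by a limit of 3 counts, so no difference was detectable. Myd88, the adaptor gene, had 5 and 3 UMIs in Klrg1-only cells and 11 and 10 in double-positive cells. Klrg1-only cells held 126410 and 136630 UMIs of all genes, and double-positive cells 347857 and 361558. Raw counts of Il1rap and Myd88 are therefore not comparable between the classes and show no lower level in Klrg1-only cells. Of 23 listed genes of the receptor complex and IL-33 signalling 12 were tested against double-positive cells. None passed, 10 had negative log2 fold changes, and the median was -0.23 beside 0.01 over all genes tested. Gata3 and Areg belong to this list and also to the VAT Treg list.

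Lists of genes by function gave few calls, which are read against 0.0508% of genes called in each direction. Of 20 tested VAT Treg programme genes none passed against double-positive cells, 13 were negative, and the median log2 fold change was -0.24. Of 16 Treg core genes none passed and the median was -0.12. Of 24 AP-1 and immediate early genes Fos was higher, Nr4a1 was lower, 12 were positive, and the median was -0.01. Of 16 genes of NF-kB subunits and targets none passed, 11 were negative, and the median was -0.15. Of 21 S100, annexin and cytoskeleton genes none passed, 17 were positive, and the median was 0.09.

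Against all other VAT cells the medians were smaller for the VAT Treg programme (-0.08, 19 genes) and similar for the ST2 list (-0.23, 11 genes), Treg core (-0.09) and S100 list (0.12). In that comparison, where 0.0765% of all genes were called higher, the calls within lists were Penk among 8 secreted factors, Hspa1a among 12 heat shock genes and Fos among 24 AP-1 and immediate early genes. Against cells without Klrg1 67 of 78 ribosomal protein genes were lower in Klrg1-only cells, with a median of -0.14 and none called. Lists of T cell receptor genes, MHC class I genes, interferon response, glycolysis, lipid metabolism, chemoattractant receptors with integrins, killer lectin-like receptors, lymphoid homing, cell cycle and effector Treg differentiation had no called gene in any of the 3 comparisons. Against double-positive cells these lists had from 2 (killer lectin-like receptors) to 15 (interferon response) tested genes. With 0.0508% of all genes called in each direction there, lists this short would mostly have no call. The lack of calls is therefore not a result about these genes. Of 15 TNF receptor and activation genes tested against double-positive cells Nr4a1, listed there too, was the single call.

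Klrg1-only cells varied widely among themselves. At 800 UMIs per cell the variance of a gene's UMIs over cells, divided by its mean, had a median of 1.47 over 506 genes in library 2 and 1.46 over 517 genes in library 3, where independent sampling at a common level gives a value near 1. Among the 20 most variable genes of each library 11 were shared: Il10, Cxcl2, Hspa1b, Fos, Dusp1, Crip1, Nr4a1, S100a6, Srgn, Vim and Areg. Il10 reached 9.53 and 5.22, with a UMI in 12.3% and 20.9% of the cells. Cxcl2, a neutrophil chemokine gene, reached 6.15 and 5.63, seen in 43.2% and 37.2%. Penk led in library 2 at 31.2.

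Summed over the VAT Treg programme list, Klrg1-only cells ranged from 0 to 28 UMIs in library 2 (median 7) and from 0 to 40 in library 3 (median 6) at 800 UMIs per cell. Double-positive cells ranged from 1 to 29 and from 0 to 25, with medians of 9 and 9, and spleen cells from 0 to 9 with a median of 0. The single highest cell thus held 28 against 29 UMIs in library 2 and 40 against 25 in library 3. The upper quartiles were 11 against 12 and 10 against 12, lower in Klrg1-only cells of both libraries. Cells without a Klrg1 UMI had medians of 7 and 7 and upper quartiles of 10 and 10.75, also below double-positive cells. Klrg1-only cells with a single Klrg1 UMI, 20 in both libraries, had a Gata3 UMI in 6 cells (11.9 to 54.3%), and those with 2 or more in 50.3% (42 to 58.7%), with overlapping intervals.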

How the data were processed

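Single Tregs from 2 VAT libraries and 1 spleen library were profiled by inDrops. The authors deposited a table of raw UMI counts per gene symbol and cell, with 23725 genes and 1019 cells; the submitters' processing notes name TopHat2, SAMtools and build mm10, while the annotation, cell filter and doublet treatment are not given in the sources used here. No doublet caller was run. The gene annotation used here for coordinates was GENCODE M21.

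The cells, gene lists and named genes were chosen with earlier results of these data known. Cells were matched 1 to 1 within a library on total UMIs (caliper 0.1 on the natural log scale), and UMIs were summed per class and library. edgeR 4.0.16 (R 4.3.3; TMM factors, library block, 20 or more UMIs over the 4 sums, Klrg1 and Il1rl1 left out of the tests) gave log2 fold changes and Benjamini-Hochberg adjusted p-values; printed SEs are the fold change divided by the square root of F. The block pairs sums of the same library, since both classes were captured together. DESeq2 1.42.0 was an alternative. Log2 ratios of 1 library add 0.5 to each count. Shares of cells with a UMI of a gene were mostly taken after thinning to 800 UMIs (Python 3.11.15, scipy 1.17.1), with exact intervals. Those of Il1rl1 by depth and by Klrg1 UMIs in VAT were taken before thinning. Cells held 887 to 3725 UMIs in VAT library 2, 916 to 4973 in library 3 and 819 to 4244 in spleen.

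Named genes were, per comparison, up to 12 called genes a direction with the same sign in both libraries, else also the 6 with 50 or more UMIs and the largest ratio shared by both libraries, 30 fixed genes, and up to 4 genes a list with the most UMIs; the text gives a selection of these. Genes named from the spread among cells, Hspa1b and the genes compared across Il1rl1 counts were chosen after their values were seen. Mitochondrial genes were listed and had no entry in the table. The result of 1 other marker list is not reported here.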

Additional observations from a re-analysis of the deposited data

How the results depend on the processing

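Numbers of called genes were unstable and small under every setting tried. Against all other VAT cells edgeR called 4 genes; it called 1 with all cells unmatched, 1 with every cell thinned to 800 UMIs and 1 without a low-count filter, 2 with Klrg1-only cells of 2 or more Klrg1 UMIs, and 0 with library totals, RLE factors, 50 or more UMIs, without the 5% of cells with the most UMIs, or in cells with a Foxp3 UMI, while DESeq2 called 1. Against double-positive cells the count of 4 became 1 when thinned, 1 with RLE factors, 1 with DESeq2, 2 in cells with a Foxp3 UMI, and 0 with library totals, without the filter or without the 5% of deepest cells; it was 6 with 50 or more UMIs, 5 with 2 or more Klrg1 UMIs and 4 unmatched. Against cells without Klrg1 the count of 0 became 1 unmatched, 3 thinned, 1 without the filter and 1 with 2 or more Klrg1 UMIs. Without the replicate block the 3 comparisons gave 0, 1 and 1 calls. Counting a gene's UMIs at most once per cell, chosen after seeing the data, left 0 calls in all 3. Penk and Hspa1a had too few UMIs to be tested in that setting. The prior degrees of freedom estimated by edgeR moved between 3.38 and infinity over these settings in the first 2 comparisons. Klrg1-only cells made up 25.9% of VAT cells, 39.6% after thinning, 22.8% with 2 or more Klrg1 UMIs and 27% without the deepest cells.

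Fos changed sign against all other VAT cells in cells with a Foxp3 UMI (-0.20) and with UMIs counted at most once (-0.066), and with the latter also against double-positive cells (-0.083); the cause was not tested. Penk, Hspa1a, Zmpste24 and Nr4a1 kept their sign where they were tested, except Hspa1a in cells with a Foxp3 UMI against double-positive cells (-2.16). With 1 library left out there was no test, and the log2 ratio of Penk was 3.46 to 3.51, of Hspa1a 1.92 to 2.48, of Fos 0.54 to 0.60 and of Zmpste24 -3.12 to -2.03 against all other VAT cells.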
